A study of Homo sapiens with 12 samples.

Results

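The genes described here encode the nuclear subunits of the respiratory chain and of ATP synthase, with some of their assembly factors, measured by RNA sequencing in LNCaP cells. They were chosen by symbol, as every listed gene whose name begins with NDUFA, NDUFB, NDUFC, NDUFS, NDUFV, UQCR, COX4, COX5, COX6, COX7, COX8 or ATP5, or is SDHA, SDHB, SDHC or SDHD. NDUFA4L2 was left out. The rule found 90 of 13001 listed genes, with 47 in complex I, 4 in complex II, 9 in complex III, 13 in complex IV and 17 in complex V. Of these, 75 encode structural subunits.

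LNCaP is an androgen-responsive human prostate cancer line that was first grown from a lymph node metastasis. At passage 8 the cells were transfected by lipofection with 1 of 4 plasmids, and 3 libraries of polyadenylated RNA were made for each. The plasmids carried SRRM4, a splicing factor that promotes inclusion of neuronal microexons; LSD1+8a, the form of the histone demethylase LSD1 that contains microexon 8a; LSD1 without that microexon; or no insert (empty vector). The 4 groups share the line, the passage and the transfection reagent. The share of cells that took up a plasmid is not given in the sources used here, and neither is the origin of the 3 libraries of each plasmid (separate cultures or 1), so p-values measure only how these libraries vary, perhaps technically.

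Complexes I and II pass electrons from NADH and succinate to ubiquinone, complex III passes them on to cytochrome c, and complex IV, cytochrome c oxidase, passes them to oxygen. Complexes I, III and IV pump protons as they do so, and complex V, ATP synthase, uses the proton gradient to make ATP. Every subunit of complex II is encoded in the nucleus, whereas the other 4 complexes each combine nuclear subunits with subunits encoded by mitochondrial DNA. Secretory cells of the normal prostate export citrate and oxidize little of it, and prostate cancers are known for oxidizing it again.

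The libraries held 10876293 to 11485489 counts with SRRM4, 12110101 to 13359671 with LSD1+8a, 11658730 to 12565335 with LSD1 and 12750609 to 13570740 with the empty vector. KDM1A, the gene of LSD1, stood at 96.3 ± 4.06 CPM with SRRM4, 2268 ± 316 CPM with LSD1+8a, 540 ± 40.5 CPM with LSD1 and 94.3 ± 0.828 CPM with the empty vector (SD, n = 3 each; CPM, counts relative to the TMM-scaled library size). Both LSD1 plasmids raised it, LSD1+8a further than LSD1. The transcript of SRRM4 itself, whose symbol has no row, was not analysed here. All 10 luminal prostate markers looked for were measured, with KLK3, which encodes prostate-specific antigen, at 2615 to 3366 CPM. Of 13 markers of basal, fibroblast, leukocyte, endothelial and embryonic kidney cells, 3 were listed: KRT14 at 2.16 to 3.07 CPM, COL1A1 at 20.4 to 29.2 CPM and VWF at 18.1 to 24.7 CPM. In such bulk RNA, fewer cells that express a gene and less of its RNA in each cell cannot be told apart.

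The subunit genes were among the abundant transcripts of these cells. Together the 90 genes made up 2.51 ± 0.0171% of deposited TPM with SRRM4, 2.43 ± 0.0196% with LSD1+8a, 2.46 ± 0.0234% with LSD1 and 2.42 ± 0.0334% with the empty vector (SD, n = 3 each; TPM, a level per transcript length scaled to the library). In all, 62 of the 90 ranked in the top 10% of listed genes by mean TPM over the 12 libraries, where the median gene stood at 19.2 TPM. The median subunit stood at 186 TPM in complex I, 103 TPM in complex II, 294 TPM in complex III, 438 TPM in complex IV and 366 TPM in complex V.

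Within a complex the levels spread widely. In complex I they ran from 40.4 TPM for NDUFV3, a small accessory subunit of the NADH-binding flavoprotein fraction, to 566 TPM for the accessory subunit NDUFS5, with NDUFB4 next at 534 TPM, over 37 subunits. Complex II was the most even, at 2.89-fold. Its membrane anchor SDHC had 217 TPM, the other anchor SDHD 103 TPM and the iron-sulfur subunit SDHB 75.1 TPM. In complex III the hinge protein UQCRH had 612 TPM and the quinone-site subunit UQCRQ 610 TPM. The Rieske iron-sulfur protein UQCRFS1, which carries electrons toward cytochrome c, was the lowest subunit of that complex at 140 TPM.

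Cytochrome c oxidase had COX7C at the top with 991 TPM and COX6A1 next with 829 TPM, while NDUFA4, once assigned to complex I and counted here as a complex IV subunit, had 194 TPM. In ATP synthase the catalytic beta subunit ATP5B had 1114 TPM, the membrane subunit ATP5J2 950 TPM and the epsilon subunit ATP5E 101 TPM. Where a subunit has isoforms, the broadly expressed forms were measured: COX4I1 at 753 TPM, COX6A1, COX6B1 at 438 TPM, COX7A2 at 448 TPM, COX7B at 209 TPM and COX8A at 793 TPM. Their tissue-restricted partners COX4I2, COX6A2, COX6B2, COX7A1, COX7B2 and COX8C were not analysed here. The 3 genes for the c subunit of the ATP synthase rotor, whose mature products are the same protein, stood at 366 TPM for ATP5G1, 905 TPM for ATP5G2 and 276 TPM for ATP5G3.

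**Figure D1:**
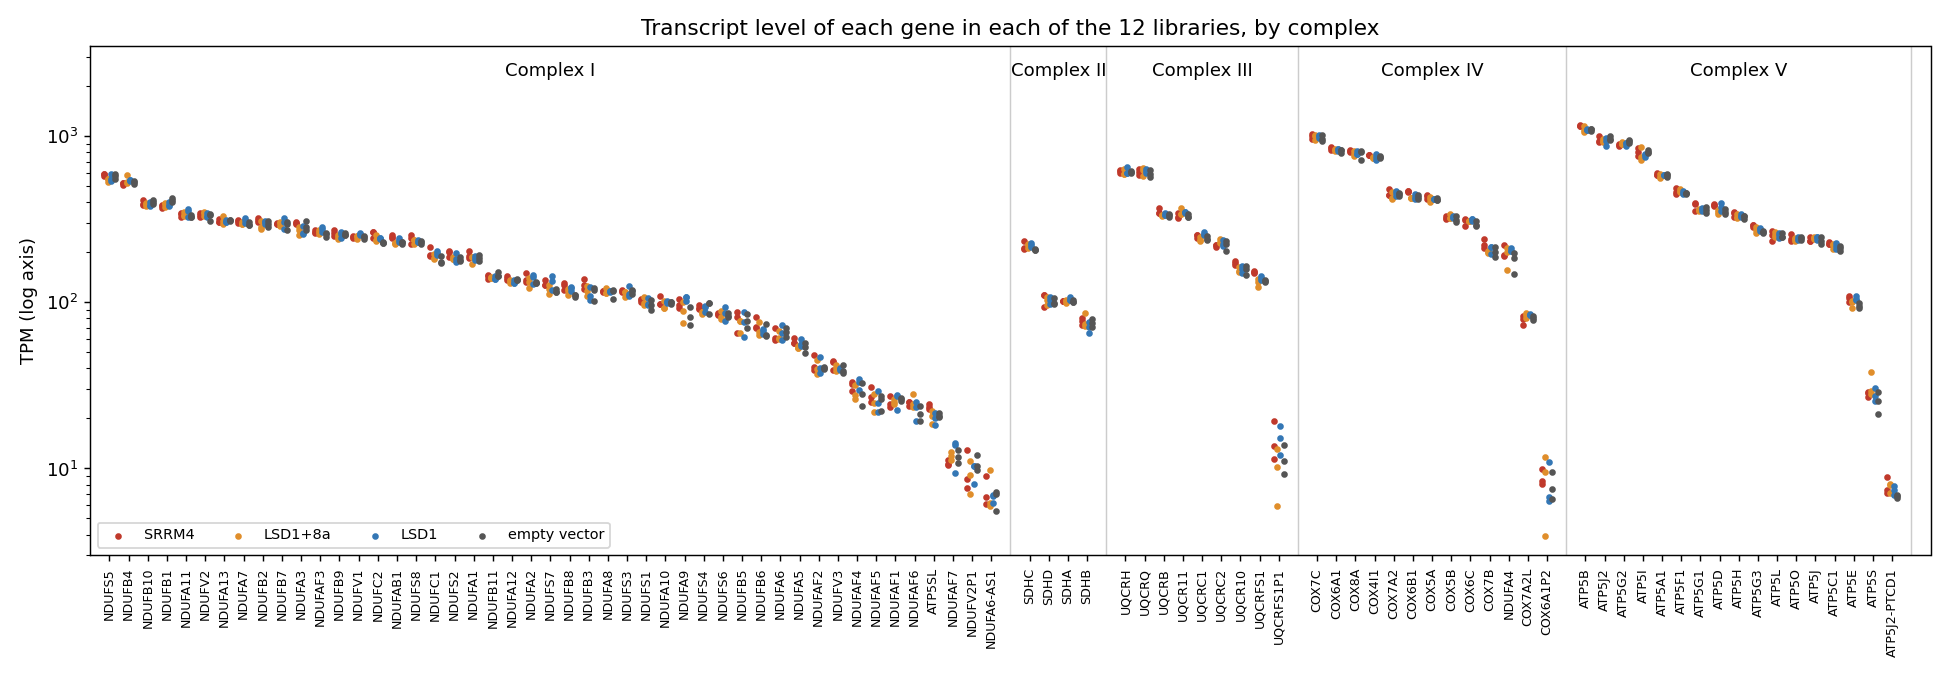
Each point is the deposited TPM of 1 gene in 1 library on a log axis, for all 90 genes in order of mean level within their complex, colored by plasmid. Subunit means run from 40.4 TPM (NDUFV3) to 1114 TPM (ATP5B), and the pseudogene, antisense and readthrough genes lie at 6.97 to 12.7 TPM.

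The other 15 genes that fit the symbols are not structural subunits. NDUFAF1, NDUFAF2, NDUFAF3, NDUFAF4, NDUFAF5, NDUFAF6, NDUFAF7 and ATP5SL (now DMAC2) are assembly factors of complex I, and they lay between 11.7 and 266 TPM. COX7A2L, a factor that joins complexes III and IV into supercomplexes, had 81.6 TPM, and ATP5S (now DMAC2L), a coupling factor of ATP synthase, had 28.3 TPM. NDUFV2P1, UQCRFS1P1 and COX6A1P2 are pseudogenes, NDUFA6-AS1 is an antisense RNA, and ATP5J2-PTCD1 is a readthrough transcript. Counts of these 5 can be shared with the genes they copy or overlap, so they and small shifts of their parents are uncertain.

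With SRRM4 the subunit genes stood slightly higher than with the empty vector, and few of them passed the test. The median log2 fold change of the 90 genes was 0.05, against -0.0011 for all 13001 genes. It was 0.05 for the 37 subunits of complex I, 0.0090 for complex II, 0.06 for complex III, 0.05 for complex IV and 0.06 for complex V. With edgeR's p adjusted over all genes after Benjamini and Hochberg and a threshold of 0.05, 5 of the 90 were called higher. That is 5.56% of them, near the 4.47% of all genes called higher. None, 0 of the 90, was called lower, against 3.22% of all genes.

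Below the threshold the balance was one-sided. At an unadjusted p under 0.05, edgeR had 22 of the 90 higher, against 10.8% of all genes, and 1 lower, against 9.95%. The 1 lower was ATP5G2 at -0.07. DESeq2 called 1 of the 90 higher, against 2.52% of all genes, and 0 lower, against 1.81%; limma-voom called 3 higher, against 3.97%, and 0 lower, against 2.78%. The log2 fold change was above 0 for 72 of the 90 genes (80%), against 49.6% of all genes. Every SRRM4 library lay above every empty-vector library for 20 of the 90, against 13% of all genes, and below for NDUFB1 alone, against 12.3%. By complex, the change was above 0 for 29 of 37 subunits in complex I, 2 of 4 in complex II, 8 of 8 in complex III, 11 of 11 in complex IV and 13 of 15 in complex V. In complex V the 5 subunits of the catalytic F1 part had a median of 0.08, and the 10 of the membrane part and stalk 0.03.

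Complex III gave the gene with the most stable call, the Rieske protein UQCRFS1. It had 162, 169 and 159 CPM in the 3 SRRM4 libraries, 146, 129.5 and 139 CPM with LSD1+8a, 149, 143 and 149.96 CPM with LSD1, and 146, 143 and 144 CPM with the empty vector. All SRRM4 libraries lay above the other 9. The log2 fold change against the empty vector was 0.18 (SE 0.039, edgeR adjusted p = 0.00251), and the authors' deposited table gave 0.18 with an adjusted p of 0.00664. UQCRFS1P1, which can share its reads, had only 7.58 CPM with SRRM4 and 5.87 CPM with the empty vector on average (0.37, SE 0.29, edgeR adjusted p = 0.530).

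NDUFB8 and NDUFC2, accessory subunits of the membrane arm of complex I, were also called. NDUFB8 had 50.8, 53.5 and 47.2 CPM with SRRM4, 46.4, 48.8 and 44.0 CPM with LSD1+8a, 50.003, 46.7 and 48.8 CPM with LSD1, and 44.1, 44.0 and 44.1 CPM with the empty vector. The SRRM4 libraries lay above the empty vector but among those of LSD1+8a and LSD1 (log2 fold change against the empty vector 0.20, SE 0.056, edgeR adjusted p = 0.0237). The empty-vector libraries of this gene lay very close together. NDUFC2 had 92.2, 100.2 and 98.4 CPM with SRRM4, against 87.7, 89.2 and 87.9 CPM with the empty vector. This difference was 0.13 on the log2 scale (SE 0.043, edgeR adjusted p = 0.0484). With LSD1+8a NDUFC2 had 88.4, 87.9 and 95.4 CPM, and with LSD1 90.2, 91.4 and 91.1 CPM. The third LSD1+8a library thus lay among those of SRRM4, and the LSD1 libraries lay above the empty vector.

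COX7B, a small subunit of cytochrome c oxidase, had 122, 129 and 121.1 CPM with SRRM4, against 111, 108 and 120.5 CPM with the empty vector. The third empty-vector library reached almost to the lowest SRRM4 library (log2 fold change 0.13, SE 0.042, edgeR adjusted p = 0.0413). ATP5G3, a gene for the rotor's c subunit, had 168, 170.1 and 169 CPM with SRRM4, 163, 152 and 148 CPM with LSD1+8a, 156, 153 and 158 CPM with LSD1, and 154, 157 and 151 CPM with the empty vector. The SRRM4 libraries lay close together and above all others (0.13 against the empty vector, SE 0.036, edgeR adjusted p = 0.0179).

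The 3 c-subunit genes did not move together. ATP5G1 was at 0.08 (edgeR adjusted p = 0.274). ATP5G2, the most abundant of them, had 347, 367 and 348 CPM with SRRM4, against 373, 379 and 361 CPM with the empty vector, and these ranges overlapped (-0.07, edgeR adjusted p = 0.222). It was called lower once trends with transcript length and GC content had been removed (-0.09, adjusted p = 0.0181), an alternative added after seeing the data. In complex II none of the 3 tools called a subunit and none passed an unadjusted p of 0.05, with SDHB at 0.05, SDHD at 0.03, the flavoprotein SDHA at -0.0079 and SDHC at -0.02.

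Some genes with larger or similar changes were not called. NDUFAF5 was at 0.24 (edgeR adjusted p = 0.199) and NDUFAF6 at 0.20 (adjusted p = 0.222) in complex I. COX6A1P2 was at 0.17 (adjusted p = 0.810) with few counts behind it. In ATP synthase the delta subunit of F1, ATP5D, was at 0.12 (adjusted p = 0.0694).

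Most of these calls changed with the tool and with single libraries. UQCRFS1 was called in all 20 alternatives. Of the 5, DESeq2 called UQCRFS1 alone, and limma-voom called UQCRFS1, NDUFB8 and ATP5G3. With SRRM4 replicate 1 left out edgeR called UQCRFS1 and NDUFC2 among the 90, with SRRM4 replicate 2 left out UQCRFS1 alone, and with SRRM4 replicate 3 left out UQCRFS1 and NDUFB8. With empty-vector replicate 1 left out it called UQCRFS1 and UQCR10, with empty-vector replicate 2 left out UQCRFS1, ATP5G3 and ATP5D, and with empty-vector replicate 3 left out UQCRFS1, COX7B and NDUFA4. UQCR10, ATP5D and NDUFA4 are not among the 5. SRRM4 replicate 2 was the highest of its group for 55 of the 90 genes and for 10 of the 11 genes called in either SRRM4 comparison. Without it the median over the 90 was 0.04. SRRM4 libraries were also the shallowest, and with all libraries thinned to the same total the count was 6 higher and 0 lower, with a median of 0.05.

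**Figure D2:**
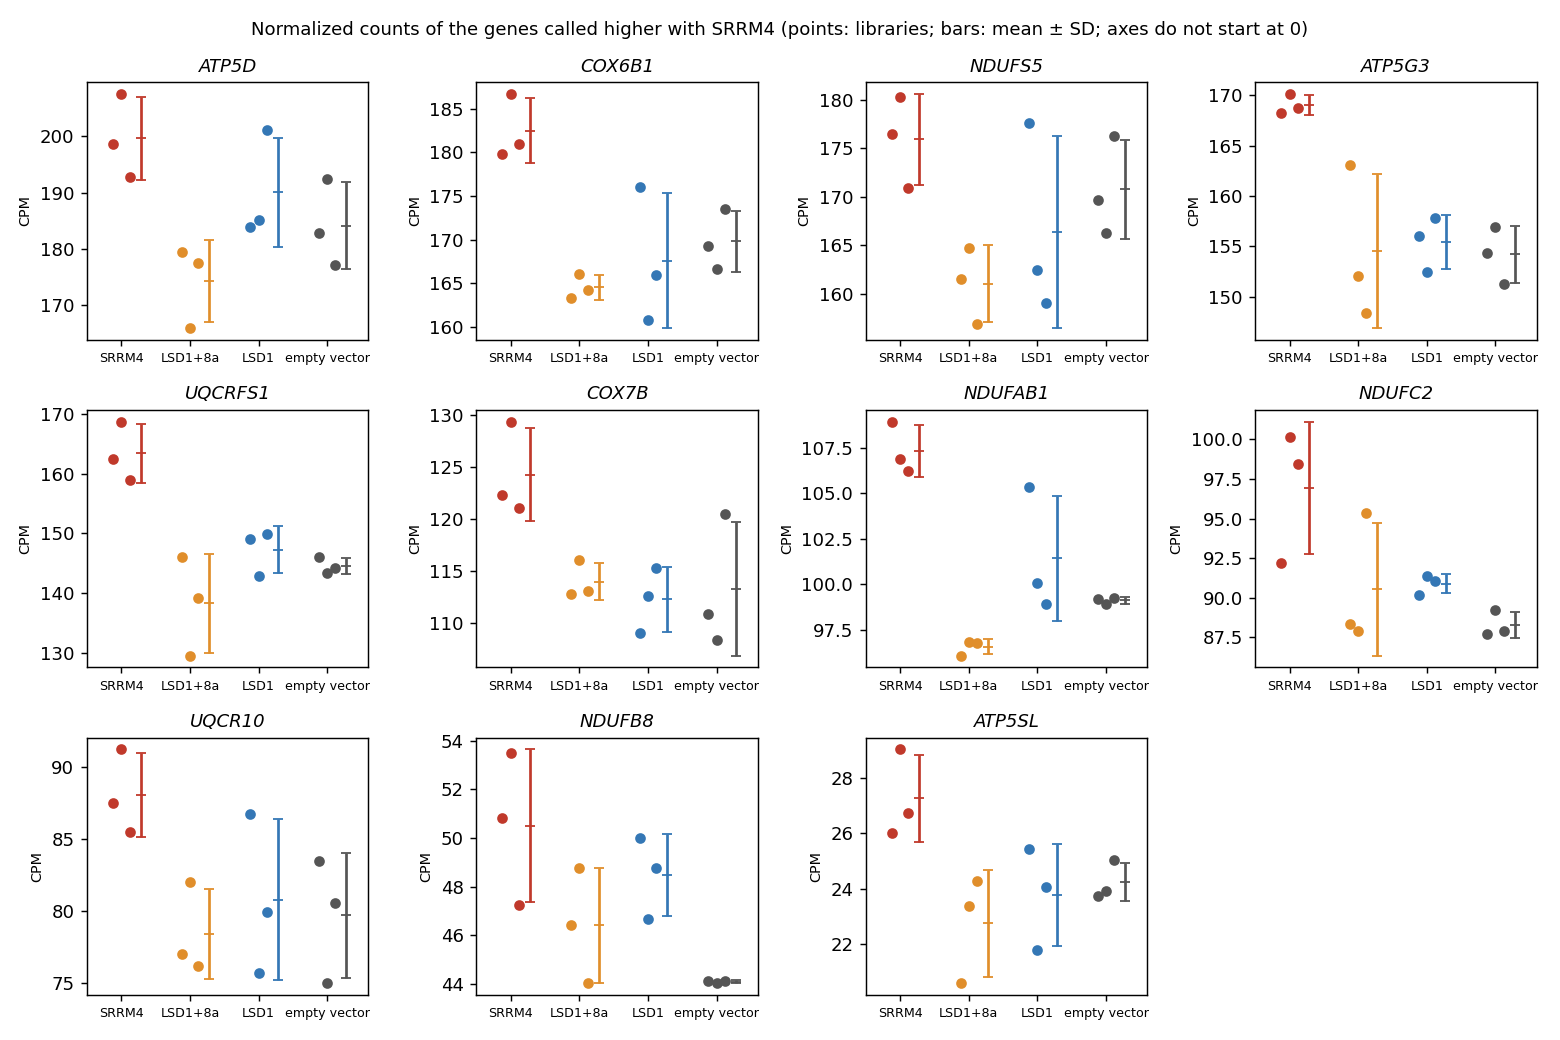
Each panel gives 1 of the 11 genes called higher with SRRM4 against the empty vector or against LSD1+8a, with normalized counts (CPM) per library as points and bars for the mean ± SD (n = 3); axes do not start at 0. For UQCRFS1 the SRRM4 libraries (159 to 169 CPM) lie above the other 9 (129.5 to 149.96 CPM).

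Against LSD1+8a the same direction was found with more calls. edgeR called 8 of the 90 genes higher with SRRM4 (8.89%), against 4.42% of all genes, and 0 lower, against 3.17%. At an unadjusted p under 0.05 there were 31 higher, against 11% of all genes, and 0 lower, against 10.2%. DESeq2 called 4 higher, against 2.64% of the genes it tested, and 0 lower, against 1.78%; limma-voom called 7 higher, against 3.81%, and 0 lower, against 2.61%. No SRRM4 set of libraries lay wholly below LSD1+8a for any of the 90, against 12.8% of all genes. The log2 fold change was above 0 for 81 of the 90 (90%), against 49.1% of all genes, and its median was 0.07, against -0.0027 for all genes. Every SRRM4 library lay above every LSD1+8a library for 27 of the 90, against 12.7% of all genes. Because the SRRM4 libraries serve in both comparisons, these counts and those against the empty vector are not independent.

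The 8 called genes came from 4 complexes. In complex III these were UQCRFS1 (log2 fold change 0.24, SE 0.039, edgeR adjusted p = 6.95e-05) and UQCR10, a small membrane subunit. UQCR10 had 87.5, 91.3 and 85.5 CPM with SRRM4, against 77.0, 82.0 and 76.2 CPM with LSD1+8a (0.17, SE 0.050, edgeR adjusted p = 0.0325). Its LSD1 and empty-vector libraries spread from 75.7 to 86.8 CPM and from 75.0 to 83.5 CPM, so that 1 LSD1 library lay among those of SRRM4.

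In complex V, ATP5D had 199, 208 and 193 CPM with SRRM4, 179, 166 and 177 CPM with LSD1+8a, 184, 185 and 201 CPM with LSD1, and 183, 192 and 177 CPM with the empty vector. The SRRM4 and LSD1+8a libraries did not overlap, and 1 LSD1 library lay among those of SRRM4 (SRRM4 against LSD1+8a 0.20, SE 0.040, edgeR adjusted p = 0.0016). ATP5G3 was called too (0.13, SE 0.036, edgeR adjusted p = 0.0242).

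COX6B1, a complex IV subunit on the intermembrane side, had 179.8, 187 and 181 CPM with SRRM4, against 163, 166 and 164 CPM with LSD1+8a (0.15, SE 0.036, edgeR adjusted p = 0.00655). The LSD1 and empty-vector libraries, at 161 to 176 CPM and 167 to 174 CPM, lay below those of SRRM4. In complex I, NDUFAB1, the mitochondrial acyl carrier protein, had 109, 107 and 106 CPM with SRRM4, against 96.1, 96.8 and 96.8 CPM with LSD1+8a. Its groups stood well apart (0.15, SE 0.039, edgeR adjusted p = 0.0115). NDUFS5 had 176.5, 180.2 and 170.9 CPM with SRRM4, against 161.5, 164.7 and 156.9 CPM with LSD1+8a (0.13, SE 0.039, edgeR adjusted p = 0.0382). Its LSD1 libraries, at 159 to 178 CPM, and empty-vector libraries, at 166 to 176 CPM, overlapped those of SRRM4. Against the empty vector NDUFS5 was at 0.04 with SRRM4 (edgeR adjusted p = 0.579) and at -0.08 with LSD1+8a. The assembly factor ATP5SL had 26.02, 29.04 and 26.7 CPM with SRRM4 and 20.6, 23.4 and 24.3 CPM with LSD1+8a (0.26, SE 0.077, edgeR adjusted p = 0.0309).

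By complex, the subunit medians of SRRM4 against LSD1+8a were 0.08 in complex I, 0.05 in complex II, 0.07 in complex III, and 0.06 in both complex IV and complex V. All 4 subunits of complex II again went uncalled by the 3 tools, with none at an unadjusted p under 0.05. UQCRFS1 kept its call in all 20 alternatives, COX6B1 and NDUFAB1 in 18 each and ATP5D in 17, while NDUFS5 kept it in 10. ATP5D lost its call with limma-trend on log2(TPM + 1) (0.14, adjusted p = 0.123) and log2(TPM + 0.1) (0.14, adjusted p = 0.123), and with length and GC trends removed, where its change was 0.0955 (adjusted p = 0.0600) against 0.20 by edgeR. The count dropped to 4 when SRRM4 replicate 1 or 2 was left out and to 5 when LSD1+8a replicate 2 was.

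**Figure D3:**
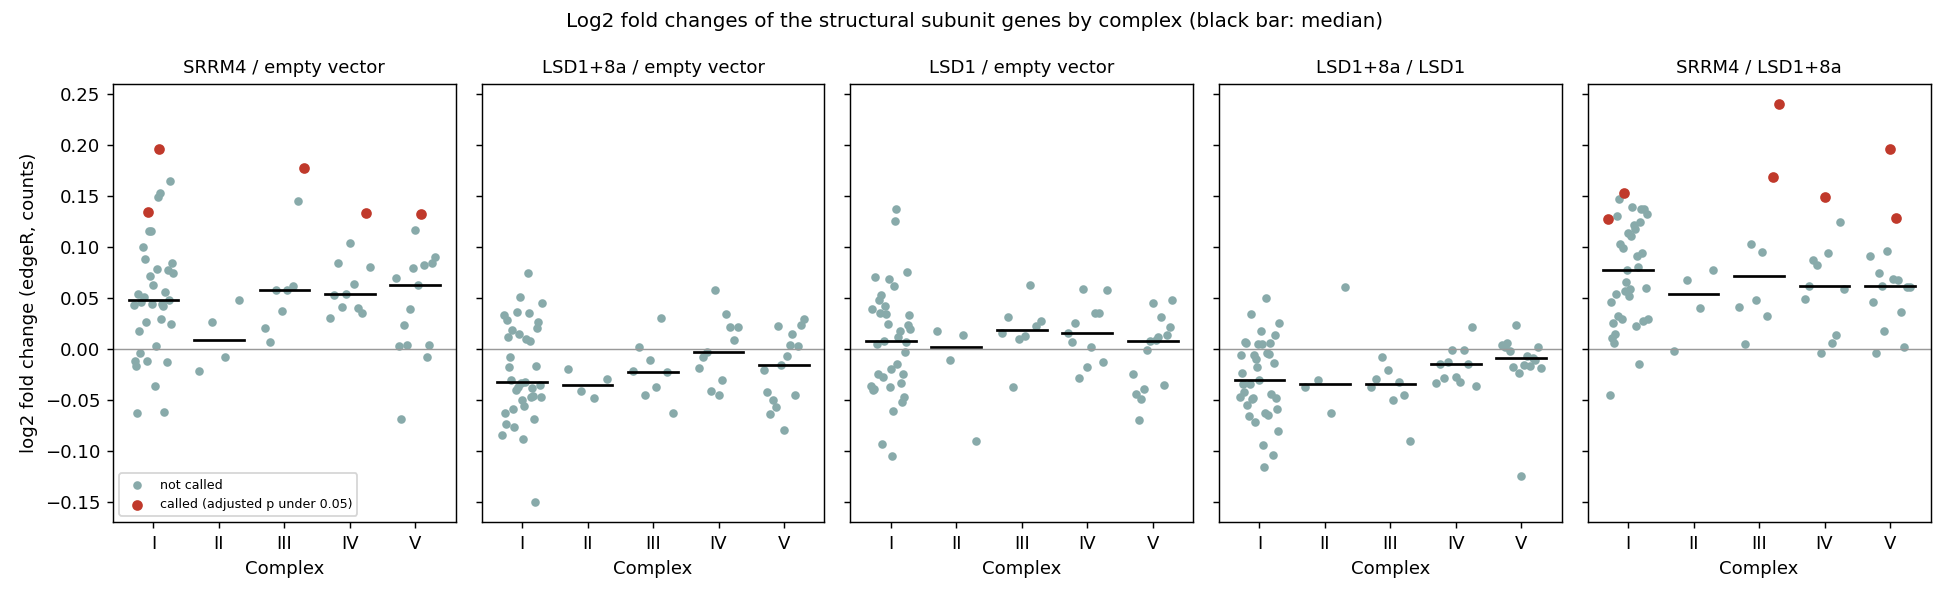
Each point is the edgeR log2 fold change of 1 of the 75 structural subunit genes, by complex, in each of the 5 comparisons; the black bar is the median, and red points are genes called at an adjusted p under 0.05. Red points occur in both SRRM4 panels (5 and 7 subunits), and complex II has none in any panel.

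Promoter sequences of the called genes are shown because many genes of oxidative phosphorylation are known to carry sites for the factors NRF1, GABP of the ETS family, and YY1. RefSeq promoter windows (GRCh38.p14, 250 bases before to 50 after each transcription start) matched 72 of the 90 genes, among them 63 subunits, and 7 of the 11 called genes. The YY1 motif AAGATGGCG, searched on both strands like all others, occurred in 13.9% of the 72 genes and in 2.14% of all 27305 genes with a window. The ETS motif CCGGAAG occurred in 29.2% against 12.2%. The NRF1 motif, GCGC on both sides of AT, occurred in 6.94% against 1.52%, and with any base in place of the T, which includes the first form, in 22.2% against 6.98%. The NF-Y motif CCAAT occurred in 36.1% against 39.7%, and the SP1 motif GGGCGG in 61.1% against 48.3%. These are shares of letter matches, not sites. The 27305 genes are every gene with a RefSeq window, whether or not it is among the 13001 listed here. Shares over the listed genes alone were not computed. Of the 7 called genes with a window, 0 held the first NRF1 form and 2 the form with any base. The ETS motif was in 1, YY1 in 1, NF-Y in 4 and SP1 in 2. No match lies in the windows of ATP5SL, COX7B or NDUFAB1 for the NRF1, ETS or YY1 motifs. ATP5D, ATP5G3, NDUFC2 and NDUFS5 had no matched window.
The 4 windows with a match of the NRF1, ETS or YY1 motif follow, 150 bases before to 30 after the start, with the letters of these matches in capitals and those of SP1 and NF-Y matches left in lower case. UQCRFS1 (chr19:29213122-29213301, minus strand) holds the NRF1 form with the free base on the strand opposite to the printed one, UQCR10 (chr22:29767219-29767398, plus strand) holds it on the printed strand, COX6B1 (chr19:35648173-35648352, plus strand) the ETS motif on the opposite strand, and NDUFB8 (chr10:100529842-100530021, minus strand) the YY1 motif.
UQCRFS1: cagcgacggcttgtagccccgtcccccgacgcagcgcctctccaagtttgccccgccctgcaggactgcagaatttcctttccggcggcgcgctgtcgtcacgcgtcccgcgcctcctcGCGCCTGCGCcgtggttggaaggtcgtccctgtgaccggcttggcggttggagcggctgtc
UQCR10: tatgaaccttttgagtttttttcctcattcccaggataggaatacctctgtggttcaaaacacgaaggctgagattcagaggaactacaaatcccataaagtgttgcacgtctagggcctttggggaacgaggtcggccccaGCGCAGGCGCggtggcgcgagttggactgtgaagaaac
COX6B1: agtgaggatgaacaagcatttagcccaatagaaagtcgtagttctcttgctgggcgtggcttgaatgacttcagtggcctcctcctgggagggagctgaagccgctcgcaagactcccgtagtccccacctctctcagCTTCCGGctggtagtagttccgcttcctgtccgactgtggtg
NDUFB8: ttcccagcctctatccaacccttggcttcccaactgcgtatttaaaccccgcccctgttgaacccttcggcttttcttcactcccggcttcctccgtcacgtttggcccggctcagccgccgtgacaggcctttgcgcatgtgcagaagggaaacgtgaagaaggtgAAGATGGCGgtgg
The capitals begin at position -31 from the start in UQCRFS1, -8 in UQCR10, -12 in COX6B1 and 18 in NDUFB8, whose second RefSeq window is the one shown. Bases after the start were found in GENCODE transcripts of UQCR10, COX6B1 and NDUFB8 but not in those of UQCRFS1. The start of UQCRFS1, and so its position -31, is therefore less certain.

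For LSD1+8a against the empty vector, 0 of the 90 genes were called in either direction. Of all genes edgeR called 0.285% higher and 0.0615% lower, DESeq2 0.269% and 0.0692%, and limma-voom 0.292% and 0.0692%. At an unadjusted p under 0.05, edgeR had 0 higher, against 3.59% of all genes, and 3 lower, against 3.23%. These were the complex I accessory subunits NDUFS4 (-0.15), NDUFB11 (-0.09) and NDUFS5 (-0.08). The median was -0.02, and 34 of the 90 were above 0 (37.8%), against 50.4% of all genes. For 9 of the 90 genes every LSD1+8a library lay below every empty-vector library, against 5.64% of all genes, and for 2, NDUFAF6 and ATP5J2-PTCD1, every one lay above, against 6.12%. The largest changes by complex were -0.26 for NDUFV2P1, -0.05 for SDHA, -0.26 for UQCRFS1P1, 0.06 for COX6A1P2 and 0.14 for ATP5J2-PTCD1, none of them called.

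NDUFB11, a membrane-arm subunit, is an extreme and not a typical case, with an unadjusted edgeR p under 0.05 for both LSD1 plasmids. It had 106, 105 and 104 CPM with LSD1+8a and 104, 102 and 106 CPM with LSD1, against 110.1, 116 and 109 CPM with the empty vector. Both LSD1 groups lay below all empty-vector libraries, and neither difference was called (-0.09 with LSD1+8a, edgeR adjusted p = 0.648, and -0.11 with LSD1, adjusted p = 0.661).

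For LSD1 against the empty vector the 3 tools again called 0 of the 90. Of all genes edgeR called 0.0462% higher and 0.0538% lower, and limma-voom the same shares. DESeq2 gave an adjusted p for only 9 of the 90 genes, and it called 0.154% of the genes with one higher and 2.76% of them lower. Genes with an unadjusted edgeR p under 0.05 were NDUFS7 (0.13), a core subunit that carries an iron-sulfur cluster, and NDUFB8 (0.14), which were higher, against 3.09% of all genes, and NDUFB11 (-0.11) and ATP5G2 (-0.07), which were lower, against 2.8%. The LSD1 libraries lay wholly above the empty vector for NDUFC2 and NDUFB8, against 5.48% of all genes, and wholly below for NDUFB11, against 6.21%. The median was 0.01, with 56 of the 90 above 0 (62.2%), against 51.1% of all genes. The largest changes by complex were -0.19 for NDUFV2P1, -0.09 for SDHB, 0.39 for UQCRFS1P1, 0.06 for COX7A2 and 0.07 for ATP5S, none of them called.

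Between the 2 forms of LSD1 the 3 tools called 0 of the 90 genes. Of all genes edgeR called 0.208% higher and 0.115% lower with LSD1+8a, DESeq2 0.192% and 0.0538%, and limma-voom 0.2% and 0.0769%. The log2 fold change of LSD1+8a against LSD1 was above 0 for 23 of the 90, against 49.6% of all genes, with a median of -0.02. At an unadjusted p under 0.05, edgeR had 0 higher, against 2.96% of all genes, and 4 lower, against 3.25%. These were ATP5D (-0.12), NDUFS7 (-0.12), UQCRFS1 (-0.09) and the assembly factor NDUFAF3 (-0.09). The LSD1+8a libraries lay wholly below those of LSD1 for 4 of the 90 (NDUFAB1, NDUFS4, SDHA and ATP5D), against 5.51% of all genes, and wholly above for 0, against 6.16%. The KDM1A level of the 2 groups differed as given above, so a difference of the microexon and one of the amount of LSD1 mRNA cannot be told apart here.

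The mRNAs that the mitochondrial genome makes for the same complexes were called in the other direction. All 13 were measured, 7 for complex I, 1 for complex III, 3 for complex IV and 2 for complex V. With SRRM4 edgeR called 8 of them lower than with the empty vector, 5 of complex I and all 3 of complex IV. Of all genes it called 3.22% lower. It called 0 of the 13 higher, against 4.47% of all genes (0 also by DESeq2 and limma-voom, and 0 at an unadjusted p under 0.05). With LSD1 it called 7 lower, 5 of complex I, MT-CYB and MT-CO1. These were all 7 genes (0.0538% of those tested) that it called lower with LSD1. With LSD1+8a it called MT-CO1 alone of the 13, against 0.0615% of all genes. MT-CO1, a catalytic subunit of cytochrome c oxidase, averaged 11989 ± 286 CPM with SRRM4, 11823 ± 191 CPM with LSD1+8a and 11775 ± 579 CPM with LSD1, against 13664 ± 479 CPM with the empty vector (SD, n = 3 each).

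Set side by side within complex I, the median nuclear subunit stood at 0.03, 0.09 and 0.03 in the SRRM4 libraries on the log2 scale relative to the empty-vector mean, and the median mitochondrial mRNA at -0.24, -0.17 and -0.20. In complex IV the nuclear medians were 0.07, 0.10 and 0.05, and the mitochondrial ones -0.17, -0.07 and -0.13. In each SRRM4 library the nuclear medians were above 0 and the mitochondrial ones below in complexes I, III, IV and V. With LSD1 the mitochondrial medians of complex I were -0.19, -0.17 and -0.26, while the nuclear ones were 0.03, -0.02 and -0.0055. With LSD1+8a the nuclear medians of complex I were -0.0022, -0.03 and -0.03, all below 0 like the mitochondrial ones. Those mitochondrial medians were -0.02, -0.16 and -0.13, so replicate 1 stood near the empty vector, whose 3 libraries were at -0.03, -0.01 and 0.04.

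That library decided the LSD1+8a count, which was 9 lower without it, and these checks were chosen after seeing the data. The LSD1 count was 4 with empty-vector replicate 2 left out, 2 with empty-vector replicate 3 and 1 with LSD1 replicate 3. The SRRM4 count was 5 with either empty-vector replicate 3 or SRRM4 replicate 1 left out. With the mitochondrial mRNAs left out of the library sizes the 3 counts were 8, 1 and 7. The 3 comparisons share the empty-vector libraries, and neighbouring mitochondrial genes and nuclear copies can share reads.

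**Figure D4:**
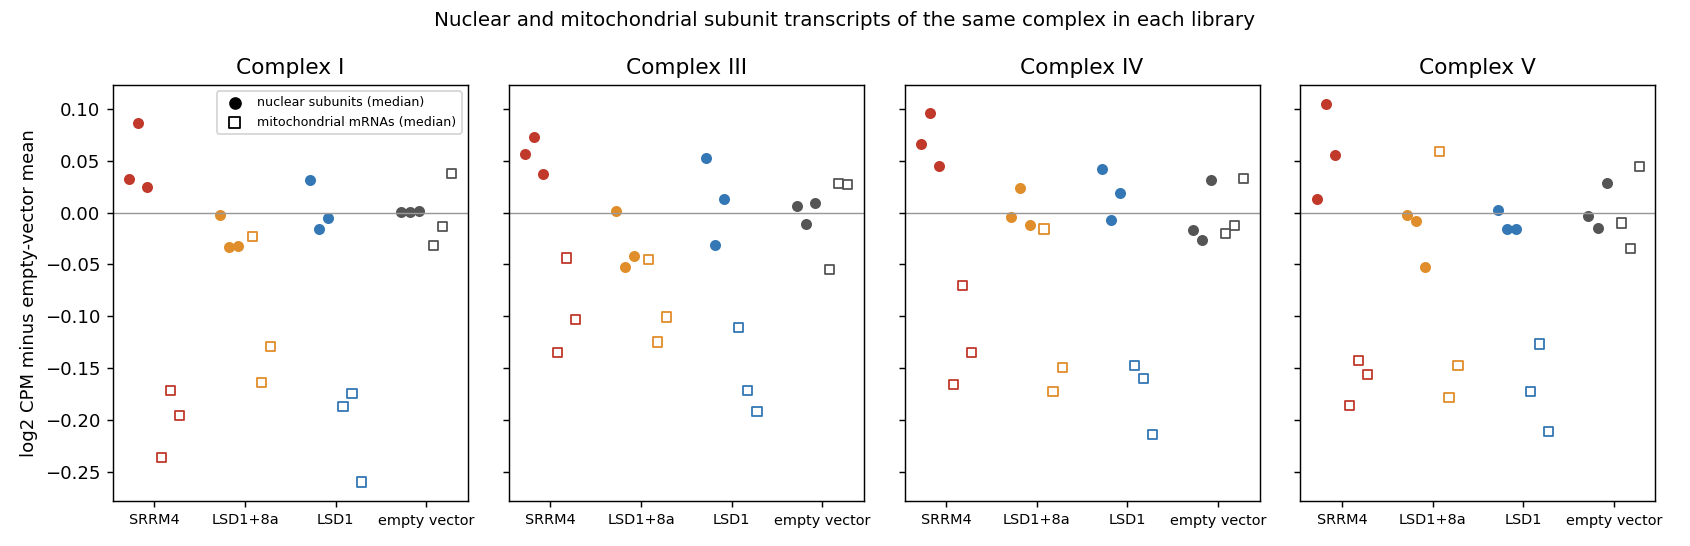
For complexes I, III, IV and V, each filled circle is the median of the nuclear subunit genes in 1 library, and each open square the median of the mitochondrial mRNAs of the same complex, as log2 CPM minus the empty-vector mean. With SRRM4 the circles lie above 0 and the squares below, and LSD1+8a replicate 1 has its complex I square at -0.02.

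Other genes that build or feed the chain were taken from 7 lists with 84 genes. With SRRM4 against the empty vector edgeR called 5 of them higher and 1 lower. Of all genes it called 4.47% higher and 3.22% lower. Complex I assembly factors outside the 90 had 1 of 8 higher, ECSIT (median of the list 0.01), which rose to 60.1 ± 3.36 CPM with SRRM4, against 45.2 ± 0.968 CPM with the empty vector (SD, n = 3 each; log2 fold change 0.41, SE 0.055, edgeR adjusted p = 1.89e-06). ECSIT is also an adaptor of innate immune signalling. Complex IV assembly factors had 1 of 24 higher, COX14 (0.23; median 0.02). Among 6 other factors and subunits of complex V, ATPIF1, the inhibitor of ATP hydrolysis by ATP synthase, was higher (0.13; median 0.06). The 4 complex II assembly factors (median 0.05) and the 6 genes of complex III assembly and cytochrome c1 (median 0.0021) had no call by edgeR, DESeq2 or limma-voom, and only the second list had any gene with an unadjusted p under 0.05, 1 higher and 1 lower.

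Another list had 17 genes of electron carriers, of ubiquinone synthesis and of dehydrogenases that deliver electrons to ubiquinone. Of these SQRDL, the sulfide oxidoreductase, was higher (0.27), and the list's median was -0.03. Of 19 genes of the citric acid cycle and pyruvate dehydrogenase, PDHX was higher (0.18) and SUCLG2 lower (-0.21), with a median of 0.03. Against LSD1+8a, SRRM4 again had ECSIT (0.45) and ATPIF1 (0.18) higher, along with SUCLG1 (0.16), PDHX (0.16) and IDH3G (0.16). ETFDH, which passes electrons from fatty acid oxidation to ubiquinone, was lower (-0.18). Of all genes edgeR called 4.42% higher and 3.17% lower in that comparison. Of the 84 genes in these 7 lists the 3 tools called 0 in the other 3 comparisons. For LSD1 against the empty vector, though, DESeq2 gave an adjusted p to only 651 of the 13001 genes. At an unadjusted p under 0.05, edgeR had 1 higher and 3 lower with LSD1+8a and 3 higher and 0 lower with LSD1, each set against the empty vector, and 4 higher and 3 lower for LSD1+8a against LSD1.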

How the data were processed

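RNA of 12 LNCaP libraries was sequenced. Per the file headers, 1 deposited table gives counts per gene, in whole numbers, and another TPM per gene. The authors' comparison table held log2 fold changes (log2), p-values and adjusted p-values against the empty vector. STAR 2.5.3a, RSEM 1.2.31 and hg19 appear in the submitters' processing notes, with no role given. The kit is Illumina TruSeq, per the labels' protocols, and whether counting used strand is not given in the sources used here.

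Counts over 13001 genes were scaled by TMM and tested in edgeR 4.0.16 (R 4.3.3; limma 3.58.1 and DESeq2 1.42.0 for alternatives) by its robust quasi-likelihood test, with all 4 groups in 1 fit and no replicate block. filterByExpr removed 0 genes. The smallest of the 90 genes had 384 counts in all. The threshold for a call was an edgeR p under 0.05 after Benjamini-Hochberg adjustment across the 13001 genes, and SE belong to log2 fold changes. The biological coefficient of variation was 2.98%, and the counts of replicate libraries varied more than counting error alone. Depth was 10876293 to 13570740 counts per library. The procedure was tested on simulated data with known changes.

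The genes and pathway lists were chosen with earlier results of these data known, so lists are given by counts and medians with no test of the list. Named were every called gene, the highest, lowest and most changed genes of each complex, isoforms, the genes that are not subunits, and up to 4 called genes of each other list. NDUFB1, NDUFB11, ATP5G2, SDHA, SDHC and genes at an unadjusted p under 0.05 were named after their values were seen. Promoter windows came from RefSeq (GRCh38.p14), matched by current or older symbol. Alternatives covered scaling, filters, tools, TPM with pseudocounts of 1 and 0.1, the replicate block, the groups fitted and each library left out. Removal of length and GC trends and thinning to equal totals were added after seeing the data.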

Additional observations from a re-analysis of the deposited data

How the results depend on the processing

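The medians of the 90 genes kept within 1 pooled SD of the library medians (0.0226) in every alternative, except for LSD1+8a against the empty vector. That median stood at 0.0085 with limma-trend on log2(TPM + 1) and 0.0085 with log2(TPM + 0.1), where the median of all genes was 0.0302 and 0.0318. In the comparisons without SRRM4 the SD is wider than the median itself, so keeping within it says little there. For LSD1 against the empty vector the median was 0.0122 in the reported fit. It reached -0.0031 with 1 library left out and 0.0278 in another alternative. For SRRM4 against the empty vector the count higher was 5 in the reported fit. It was 3 with upper-quartile factors, 1 with DESeq2, 3 with limma-voom, 3 with TPM + 1 and 3 with TPM + 0.1, and 1 to 3 with 1 library left out. The count lower was 1 with length and GC trends removed, ATP5G2, where 553 of all genes were lower. For SRRM4 against LSD1+8a the count higher was 8 in the reported fit, 4 with DESeq2, 2 with TPM + 1, 2 with TPM + 0.1 and 4 to 9 with 1 library left out. With a replicate block the count for SRRM4 against the empty vector was 3, with COX7B and NDUFC2 lost. No shared deviation was seen between libraries with the same replicate number. The correlation of deviations lay between -0.145 and 0.121 over 18 same-numbered pairs and exceeded 0.1 in 1 of them. Over 36 pairs with different numbers it lay between -0.101 and 0.119 and exceeded 0.1 in 3. This does not show whether same-numbered libraries were prepared together. COX6A1P2, a pseudogene with few counts, reversed for LSD1+8a against the empty vector to -0.0762 with limma-voom, -0.0178 with TPM + 1, -0.0361 with TPM + 0.1 and -0.0179 when thinned, and ran from -0.2864 to 0.4188 with 1 library left out. SDHD reversed for SRRM4 against the empty vector, with a range of -0.02 to 0.0727 over the libraries left out. The cause of these shifts was not tested. The genes are short, with a median transcript length of 0.334 of that of all genes, and the largest called change among them was 0.26 on the log2 scale.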

Other observations

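Genes of the mitochondrial ribosome, of protein import and of the regulation of mitochondrial biogenesis came from 3 lists outside the rule. Of their 117 genes edgeR called 9 higher and 2 lower with SRRM4 against the empty vector. The shares of all genes were 4.47% and 3.22%. Of 77 mitochondrial ribosomal proteins edgeR called 3 higher and 1 lower with SRRM4 against the empty vector (median log2 fold change 0.04). MRPL34 averaged 56.9 ± 2.42 CPM with SRRM4 and 47.2 ± 0.582 CPM with the empty vector (SD, n = 3 each), a change of 0.27. MRPL49 (0.19) and MRPL44 (0.23) rose as well, and MRPL48 fell (-0.21). Of 23 import genes the outer membrane translocase subunit TOMM5 (0.20) and the cytosolic co-chaperone TOMM34 (0.16) were higher, with a list median of 0.07.

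Among 17 regulators of mitochondrial biogenesis 4 were higher, against 4.47% of all genes, and 1 lower, against 3.22% (list median 0.11). PPRC1, a coactivator of the PGC-1 family, averaged 95.5 ± 5.21 CPM with SRRM4 and 82.5 ± 3.598 CPM with the empty vector (0.21, edgeR adjusted p = 0.00169). POLG, the polymerase that copies mitochondrial DNA, was at 0.22, the transcription factor YY1 at 0.15 and the coactivator PPARGC1B at 0.36, and GABPB2, a subunit of GABP, fell (-0.25). NRF1 (-0.08, adjusted p = 0.680) and TFAM (-0.02, adjusted p = 0.918) were not called. Against LSD1+8a, SRRM4 had 6 ribosomal proteins, 3 import genes and 4 regulators higher and 0 lower of the same 117 genes by edgeR (29 up and 1 down where the unadjusted p was under 0.05, 3 higher and 0 lower by DESeq2, and 12 higher and 0 lower by limma-voom), including MRPL41 (0.20), TIMM44 (0.16) and the mitochondrial RNA polymerase POLRMT (0.17). For LSD1+8a or LSD1 against the empty vector edgeR, DESeq2 and limma-voom called 0 of these 117. For LSD1 DESeq2 gave an adjusted p to only 651 of the 13001 genes, so its 0 there says little. At an unadjusted edgeR p under 0.05, 4 were higher and 5 lower for LSD1+8a, and 5 higher and 1 lower for LSD1.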
